A study of Glycine max with 15 samples.

Results

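Chalcone synthase, chalcone isomerase and isoflavone synthase are enzymes on the way from the general phenylpropanoid route to the isoflavones of soybean. The 8 genes described here, of 54175 gene IDs in the deposited tables, were chosen by ID for these enzymes. The rule that picks them uses no measured value, but the enzymes were picked as a subject with earlier results of these data known. They are 5 chalcone synthases (CHS7, Glyma01g43880; CHS8, Glyma11g01350; Glyma05g28610; Glyma08g11620; Glyma09g08780), 1 chalcone isomerase (CHI1A, Glyma20g38560) and 2 isoflavone synthases (IFS1, Glyma07g32330; IFS2, Glyma13g24200). The names come with the selection of the genes, since the files do not pair IDs with names. The RefSeq gene table of assembly Glycine_max_v4.0 lists CHS7 on chromosome 1, CHS8 on 11, CHI1A on 20, IFS1 on 7 and IFS2 on 13, which are the chromosomes of those 5 IDs in the files. It also gives IFS2 as a synonym of IFS1 and the reverse, so the IDs are the safer guide for that pair.

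Chalcone synthase condenses a coumaroyl thioester with malonyl units into a chalcone, the entry step of flavonoid synthesis. Chalcone isomerase closes the chalcone into a flavanone, and the legume form to which CHI1A belongs also takes isoliquiritigenin, the chalcone that leads to daidzein. Isoflavone synthase, a cytochrome P450 found mainly in legumes, moves the aryl ring of the flavanone and so opens the isoflavone branch. Soybean isoflavones serve as signals to root-nodule bacteria and as precursors of the phytoalexin glyceollin. CHS7 and CHS8 are the family members best known from isoflavone accumulation in soybean seeds. In yellow-seeded cultivars such as Williams 82, clustered chalcone synthase genes on chromosome 8 give rise to small RNAs that silence the family in the seed coat.

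RNA sequencing was done on Williams 82 seedlings, 10 days old and at the first vegetative stage, in 15 libraries that form 5 groups of 3. All 4 treated groups were watered with propiconazole (Pcz), an inhibitor of brassinosteroid synthesis, at 5 mM. They differ in brassinolide (BL, the most active brassinosteroid), which the group Pcz did not get, the group Pcz-lowBL got at 10 nM together with Pcz, and the groups Pcz-BL-1h and Pcz-BL-8h got at 1 mM after Pcz, for 1 h or 8 h, with doses as the labels print them. The fifth group, control, was mock treated. No group had Pcz and then a mock addition, so effects of the later BL and of the addition itself cannot be told apart. The labels do not state whether libraries of 1 group stem from different plants. P-values therefore speak only for these libraries, whose spread may be technical. Each table holds 1 pooled FPKM value per group (fragments per kilobase of transcript, scaled to library size), so no value or spread per library can be shown, and the depth is unknown. In seedlings, fewer cells of a type and less RNA per cell cannot be told apart, and tissue markers could not be checked without gene names.

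Every treated group has a table of its own against control, and the tables are called here after their sheet names: Pcz alone (sheet Pcz), low BL (sheet Pcz-BL), 1 h BL (sheet Pcz-BL-1h) and 8 h BL (sheet Pcz-BL-8h). The column headers go against the sheet names in 3 of 4 tables. The table called low BL is headed Pcz-BL-1h, the table called 1 h BL is headed Pcz-BL-8h, and the table called 8 h BL is headed Pcz-BL. Which BL treatment each of these 3 tables holds is therefore uncertain, while Pcz alone has matching names. All tables name the same control group, but its FPKM differ between tables. The typical control value in the 8 h BL table was 0.829 times that in the low BL table. Between the tables for Pcz alone and low BL, control values moved in both directions, so 1 scaling factor does not relate them. IFS2 had 18.9 FPKM in the control of Pcz alone and 15.9 FPKM in that of low BL. Glyma08g11620 had 0.531 and 0.655 FPKM in the same order. The cause of this was not tested. Summed over all genes, the log2 ratio of treated to control FPKM was -0.52 (Pcz alone), -0.74 (low BL), -0.61 (1 h BL) and 0.07 (8 h BL). Levels are given beside the control of the same table. On a TPM scale, where each FPKM is a share of the summed FPKM of its column, every fold change is multiplied by 1.43 (Pcz alone), 1.67 (low BL), 1.53 (1 h BL) or 0.953 (8 h BL).

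Transcripts of CHS7, CHS8, CHI1A and IFS2 rose in every treated group, those of IFS1 and Glyma08g11620 rose in the groups with BL, and no member fell by the authors' test. A gene was called where the authors' q was 0.05 or less. With Pcz alone, 4 of the 6 members with a test were higher and 0 lower, where 24.9% of all tested genes were higher and 28.4% lower. With low BL, 6 of 7 were higher and 0 lower, against 13.4% and 22.8% of tested genes. With 1 h BL, 6 of 7 were higher and 0 lower, against 25.6% and 26.5%. With 8 h BL, 6 of 7 were higher and 0 lower, against 25.8% and 30.7%. The median log2 fold change of tested members was 0.79 with Pcz alone, 1.68 with low BL, 1.79 with 1 h BL and 1.54 with 8 h BL, beside medians over all tested genes of 0.01, -0.13, -0.07 and -0.10 in the same order. Glyma09g08780 was tested in no table and Glyma08g11620 was not tested with Pcz alone, so those medians and counts leave them out.

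Stricter calls removed few members. With the authors' q held to 0.01, 3 members were higher with Pcz alone (18.9% of tested genes) and 5 with low BL (9.48%). With a minimum change of 2-fold, 3 members were higher with Pcz alone (12.9%). With p taken instead from a normal distribution for the authors' test statistic, 3 members were higher with Pcz alone (13.8%), 5 with low BL (5.66%) and 4 with 8 h BL (13.9%). The members lost were CHI1A with Pcz alone, Glyma08g11620 with low BL and 8 h BL, and IFS2 with 8 h BL.

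**Figure D1:**
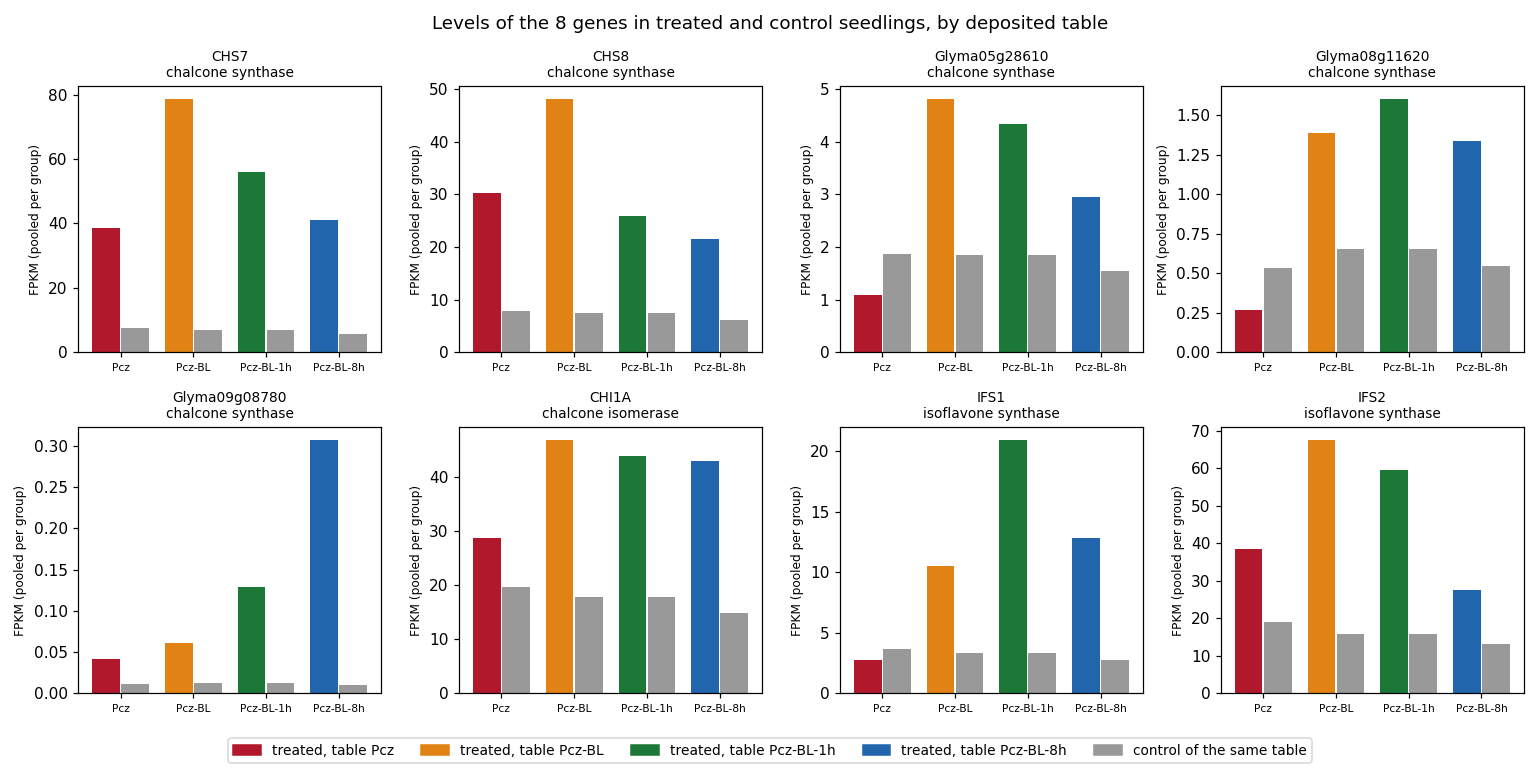
FPKM of the 8 genes (y axis, pooled per group, with a scale of its own in each panel) in treated seedlings and in the control of the same deposited table, for the 4 tables by sheet name (x axis). CHS7 stands at 38.6 to 78.7 FPKM in treated groups against 5.80 to 7.51 FPKM in control, and IFS1 is below its control with Pcz alone, at 2.77 against 3.65 FPKM.

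Among the chalcone synthases, CHS7 (chromosome 1, 54742695 to 54744656, genome build not stated in the labels or files) had the largest called changes of all members. With Pcz alone it had 38.6 FPKM in treated seedlings and 7.51 FPKM in control per the authors' deposited table (log2 fold change 2.36, standard error 0.34, q = 0.000188). With low BL the authors' deposited table lists 78.7 FPKM in treated seedlings and 6.95 FPKM in control (log2 fold change 3.50, standard error 0.49, q = 0.000314). CHS7 was thus 11.3 times its control there, or 18.9 times on the TPM scale, and 98.8% of tested genes had a smaller log2 fold change in that deposited table of the authors. For 1 h BL the authors' deposited table gives 55.9 FPKM in treated seedlings and 6.96 FPKM in control (log2 fold change 3.005, standard error 0.35, q = 0.000187). For 8 h BL the authors' deposited table gives 41.1 FPKM in treated seedlings and 5.80 FPKM in control (log2 fold change 2.82, standard error 0.47, q = 0.000181). Every treated level of CHS7 was more than 5 times the control of its table.

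The authors also deposited a short list per table, which on inspection holds the genes at the smallest p that occurs, 5e-05, with a log2 fold change of at least 2 in size. CHS7 is in all 4 short lists, which have 82 genes in common, and also among 59 IDs in a column without a name in the table for Pcz alone. CHS8 and IFS2 are in the short list for low BL only, IFS1 is in those for 1 h BL and 8 h BL, and the other 4 members are in none.

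CHS8 (chromosome 11, 793458 to 795686) rose in every treated group too. With Pcz alone its level in the authors' deposited table was 30.3 FPKM in treated seedlings and 7.79 FPKM in control (log2 fold change 1.96, standard error 0.38, q = 0.000188). Its highest level came with low BL, at 48.2 FPKM in treated seedlings and 7.43 FPKM in control per the authors' deposited table (log2 fold change 2.70, standard error 0.46, q = 0.000314). With 1 h BL it had 25.8 FPKM in treated seedlings and 7.44 FPKM in control per the authors' deposited table (log2 fold change 1.79, standard error 0.33, q = 0.000187). CHS8 was at 21.5 FPKM in treated seedlings and 6.17 FPKM in control with 8 h BL, per the authors' deposited table (log2 fold change 1.80, standard error 0.45, q = 0.000181).

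CHS7 and CHS8 were nearly level in control and apart in treated seedlings. The ratio of CHS7 to CHS8 FPKM was 1.27 with Pcz alone, 1.63 with low BL, 2.16 with 1 h BL and 1.91 with 8 h BL, against 0.935 to 0.964 in the 4 control columns. These ratios of pooled values carry no error and were not tested.

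The other 3 chalcone synthases were at low levels. Glyma08g11620 (chromosome 8, 8466645 to 8469994) lies on the chromosome where RefSeq places 9 of its 17 genes with a CHS number as symbol. With Pcz alone the authors' deposited table lists it at 0.271 FPKM in treated seedlings and 0.531 FPKM in control, without a test. It rose with low BL, to 1.39 FPKM in treated seedlings against 0.655 FPKM in control per the authors' deposited table (log2 fold change 1.08, standard error 0.66, q = 0.0248). It was also higher with 1 h BL, at 1.60 FPKM in treated seedlings and 0.657 FPKM in control per the authors' deposited table (log2 fold change 1.29, standard error 0.52, q = 0.000669). With 8 h BL it had 1.34 FPKM in treated seedlings and 0.546 FPKM in control per the authors' deposited table (log2 fold change 1.30, standard error 0.68, q = 0.00360). The treated levels with BL were 2.12 (low BL), 2.44 (1 h BL) and 2.46 (8 h BL) times control. On the TPM scale they were 3.53, 3.73 and 2.34 times control in the same order.

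Glyma05g28610 (chromosome 5, 34416316 to 34422554) was tested in every table and called in none. Treated and control seedlings had 1.08 and 1.86 FPKM with Pcz alone in the authors' deposited table (q = 0.342), and 4.81 and 1.84 FPKM with low BL (q = 0.138). The authors' deposited table lists 4.34 FPKM in treated seedlings and 1.85 FPKM in control for 1 h BL (q = 0.0914), and 2.96 FPKM in treated seedlings and 1.54 FPKM in control for 8 h BL (q = 0.231). Its standard errors, 0.95 to 1.18 on the log2 scale, are the widest among the members. The tables give 2 other IDs the same interval of chromosome 5, so the split of fragments among the 3 IDs is uncertain. Chalcone synthase genes are also alike in sequence, and how fragments that match several of them were counted is not known from the labels or files.

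Glyma09g08780 (chromosome 9, 8193449 to 8195784) was at the bottom of the range. The authors' deposited tables list treated seedlings at 0.0415 FPKM (Pcz alone), 0.0614 FPKM (low BL), 0.129 FPKM (1 h BL) and 0.307 FPKM (8 h BL), against 0.0102 to 0.0122 FPKM in control. No table tested this gene, so the values are listed without a call.

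Summed over the 5 chalcone synthases, treated seedlings had 70.3 FPKM with Pcz alone, 133 FPKM with low BL, 87.8 FPKM with 1 h BL and 67.2 FPKM with 8 h BL, against 17.7, 16.9, 16.9 and 14.1 FPKM in control. The sum was 3.97 times its control with Pcz alone, 7.88 times with low BL, 5.19 times with 1 h BL and 4.78 times with 8 h BL. CHS7 and CHS8 together made up 93.1% to 98.0% of the treated sums and 85.1% to 86.4% of the control sums. Only the 5 chalcone synthases chosen here are in these sums.

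**Figure D2:**
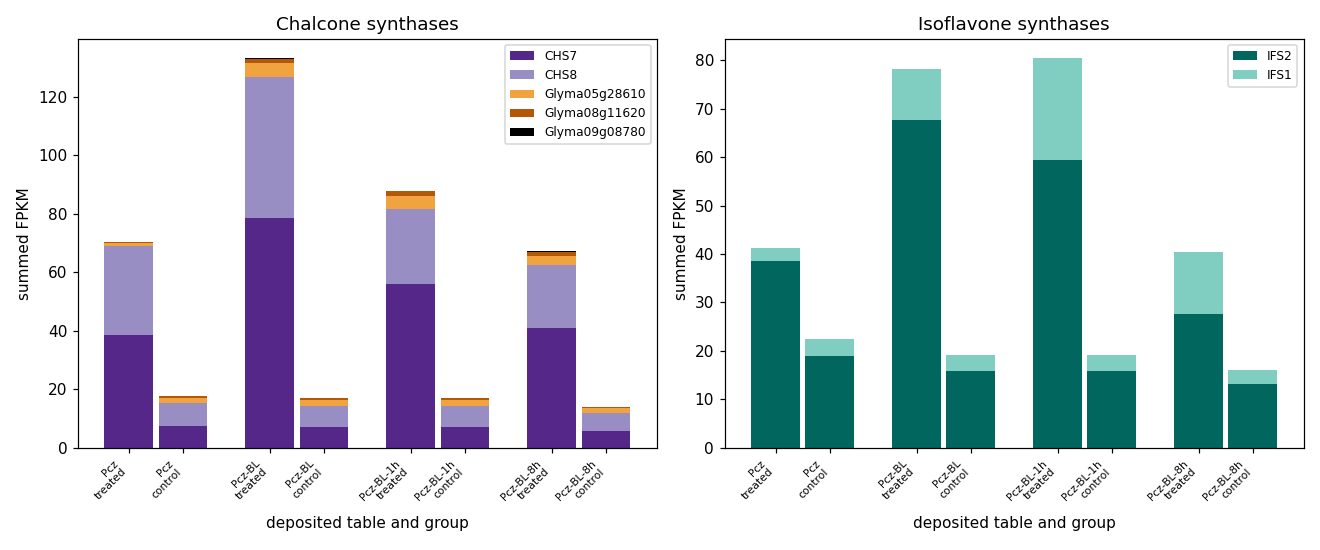
Summed FPKM (y axis) of the 5 chalcone synthases and of the 2 isoflavone synthases in treated and control seedlings of each deposited table by sheet name (x axis), with a colour per gene. CHS7 and CHS8 fill at least 93.1% of each treated chalcone synthase bar, and IFS1 fills 6.69% (Pcz alone) to 31.8% (8 h BL) of the treated isoflavone synthase bars.

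CHI1A (chromosome 20, 46127060 to 46129533) was the most abundant of the 8 genes in control and rose less than CHS7. With Pcz alone the authors' deposited table gives 28.7 FPKM in treated seedlings and 19.6 FPKM in control (log2 fold change 0.55, standard error 0.37, q = 0.0144). This is the smallest of the members' called changes. With low BL it had 46.8 FPKM in treated seedlings and 17.8 FPKM in control per the authors' deposited table (log2 fold change 1.40, standard error 0.41, q = 0.000314). CHI1A stood at 43.8 FPKM in treated seedlings and 17.8 FPKM in control with 1 h BL, per the authors' deposited table (log2 fold change 1.30, standard error 0.30, q = 0.000187). For 8 h BL the authors' deposited table lists 43.0 FPKM in treated seedlings and 14.8 FPKM in control (log2 fold change 1.54, standard error 0.43, q = 0.000181). As plain FPKM, not set beside control, the levels of CHI1A with BL lie within 43.0 to 46.8 FPKM. That is a narrower span than that of CHS7, CHS8, IFS1 or IFS2. On the TPM scale CHI1A was 4.39 (low BL), 3.75 (1 h BL) and 2.78 (8 h BL) times control.

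With Pcz alone, IFS2 passed the test and IFS1 did not, and the difference between the 2 genes was not tested. IFS2 (chromosome 13, 27567217 to 27569470) rose, with 38.6 FPKM in treated seedlings and 18.9 FPKM in control per the authors' deposited table (log2 fold change 1.03, standard error 0.36, q = 0.000188). IFS1 (chromosome 7, 37261035 to 37263430) had 2.77 FPKM in treated seedlings and 3.65 FPKM in control per the authors' deposited table (log2 fold change -0.40, standard error 0.42, q = 0.189). That value of IFS1 did not pass the test, and on the TPM scale its sign turns, to 0.12.

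With BL, IFS1 rose too. With low BL it had 10.5 FPKM in treated seedlings and 3.30 FPKM in control per the authors' deposited table (log2 fold change 1.68, standard error 0.48, q = 0.000314). Its highest level came with 1 h BL, at 20.96 FPKM in treated seedlings and 3.31 FPKM in control per the authors' deposited table (log2 fold change 2.66, standard error 0.35, q = 0.000187). For 8 h BL the authors' deposited table has 12.8 FPKM in treated seedlings and 2.75 FPKM in control (log2 fold change 2.23, standard error 0.49, q = 0.000181). The 3 treated levels of IFS1 with BL are each above 3 times their control.

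IFS2 had its highest level with low BL, at 67.6 FPKM in treated seedlings and 15.9 FPKM in control per the authors' deposited table (log2 fold change 2.09, standard error 0.46, q = 0.000314). With 1 h BL it had 59.4 FPKM in treated seedlings and 15.9 FPKM in control per the authors' deposited table (log2 fold change 1.90, standard error 0.33, q = 0.000187). IFS2 was at 27.6 FPKM in treated seedlings and 13.2 FPKM in control with 8 h BL, per the authors' deposited table (log2 fold change 1.06, standard error 0.45, q = 0.000343). That last change is close in size to the 1.03 with Pcz alone, but on the TPM scale the 2 values are 0.99 (8 h BL) and 1.55 (Pcz alone).

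IFS2 was the more abundant isoflavone synthase in every group, by a ratio that varied. It stood at 13.9 times the FPKM of IFS1 with Pcz alone, 6.41 times with low BL, 2.84 times with 1 h BL and 2.15 times with 8 h BL, against 4.81 to 5.18 times in control. IFS1 held 6.69% of the summed isoflavone synthase FPKM with Pcz alone, 13.5% with low BL, 26.1% with 1 h BL and 31.8% with 8 h BL, against 16.2% to 17.2% in control. The sum itself was 41.3 FPKM with Pcz alone, 78.1 FPKM with low BL, 80.4 FPKM with 1 h BL and 40.4 FPKM with 8 h BL, against 22.5, 19.2, 19.2 and 15.96 FPKM in control. Shares and sums come from pooled values and have no test of their own. How fragments that match both isoflavone synthases were counted is not known from the labels or files, so the split between them is uncertain.

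**Figure D3:**
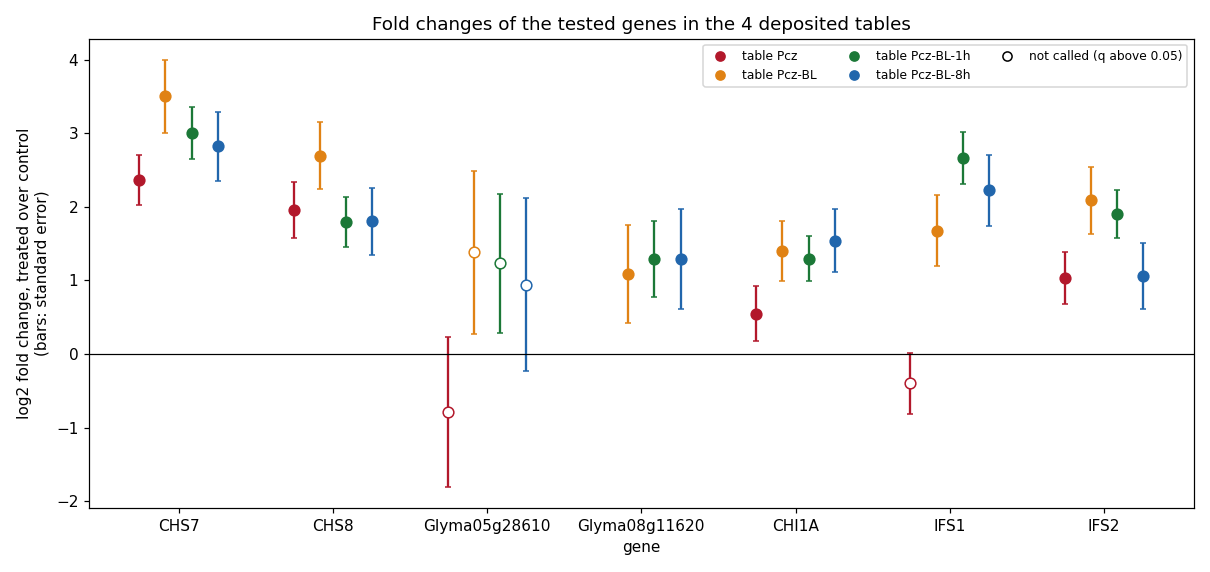
Log2 fold change of treated over control (bars show the standard error, where the authors ran a test) for the members in each deposited table by sheet name. CHS7 has the largest called change in each table, 2.36 to 3.50, and IFS1 lies at -0.40 with Pcz alone and between 1.68 and 2.66 in the tables with BL.

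Groups with BL were set against Pcz alone through the difference of their log2 fold changes, by a z test per gene with Benjamini-Hochberg adjustment over all genes. It treats the errors of both fold changes as independent, although they share control. Of the 6 members with a test in both tables, 1 differed in each of the 3 comparisons, and in each it was IFS1. For low BL its log2 fold change was higher than for Pcz alone by 2.08 (95% interval 0.82 to 3.33, z test adjusted p = 0.0282), where 3.29% of all genes were higher. For 1 h BL it was higher by 3.06 (1.99 to 4.13, adjusted p = 5.28e-07), where 15.3% of genes were higher. For 8 h BL it was higher by 2.63 (1.37 to 3.88, adjusted p = 0.000361), where 17.4% of genes were higher. As all 3 tables with BL gave this call, it does not rest on which of them holds which BL treatment. The 3 comparisons are not independent, since each subtracts the same IFS1 value with Pcz alone.

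The other members did not pass this test, and their intervals leave room for sizeable differences. CHS7 was at 1.14 for low BL minus Pcz alone (95% interval -0.03 to 2.31, adjusted p = 0.382) and IFS2 at 1.06 (-0.08 to 2.20, adjusted p = 0.422). CHI1A was at 0.99 for 8 h BL minus Pcz alone (-0.12 to 2.11, adjusted p = 0.166). IFS2 was at 0.03 for 8 h BL minus Pcz alone (-1.09 to 1.15, adjusted p = 0.976). CHS8 was at 0.74 for low BL, -0.17 for 1 h BL and -0.16 for 8 h BL, each minus Pcz alone, with adjusted p of 0.693, 0.853 and 0.866.

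Between 8 h BL and 1 h BL, 0 of 7 members differed by the z test, with 0 also at an unadjusted p under 0.05, where 7.53% of all genes differed at an adjusted p of 0.05 or less. The widest gap was that of IFS2, at -0.84 (95% interval -1.93 to 0.25, adjusted p = 0.410). On the TPM scale the difference of IFS2 was -1.52 and passed the test. IFS1 was at -0.44 (-1.61 to 0.74, adjusted p = 0.750) and CHS7 at -0.18 (-1.33 to 0.97, adjusted p = 0.911).

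Comparisons with low BL were added after the data were seen. For 1 h BL minus low BL, 0 of 7 members differed by the z test, with 0 at an unadjusted p under 0.05, where 13.5% of all genes differed. For 8 h BL minus low BL it was again 0 of 7, with 0 at an unadjusted p under 0.05, where 23.8% differed. IFS1 was at 0.99 for 1 h BL minus low BL (-0.18 to 2.16, adjusted p = 0.344), CHS8 was at -0.90 (-2.01 to 0.21, adjusted p = 0.370), and IFS2 was at -1.03 for 8 h BL minus low BL (-2.28 to 0.23, adjusted p = 0.250).

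**Figure D4:**
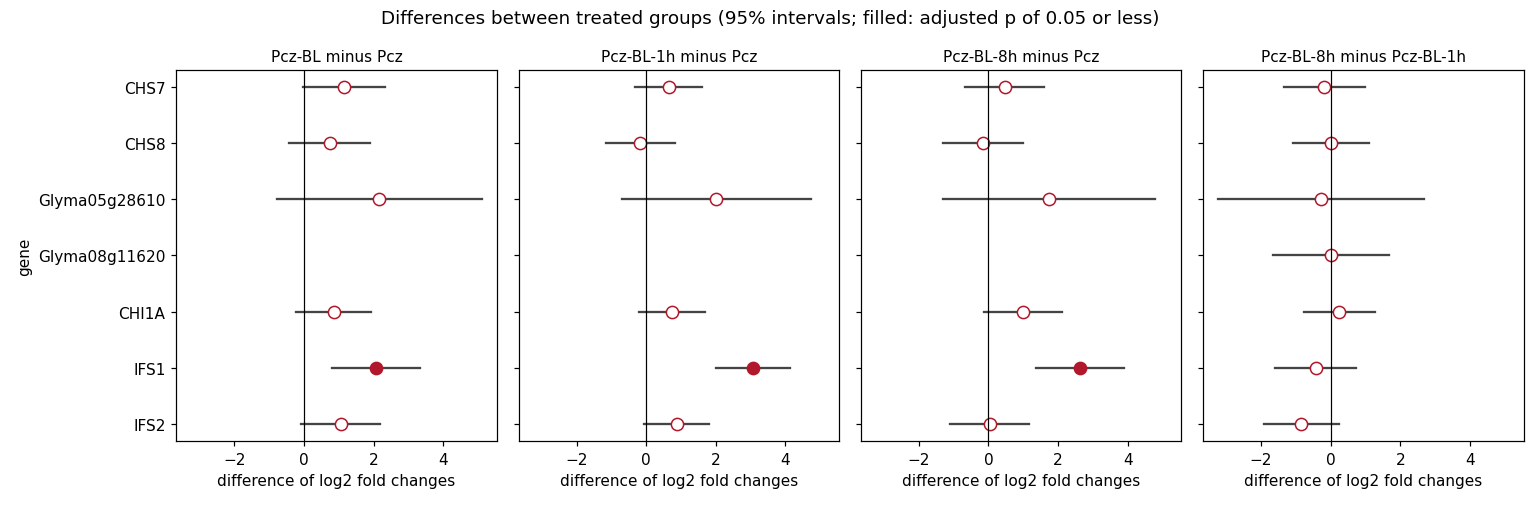
Difference of log2 fold changes between treated groups, with 95% intervals, for the members with a test in both tables, in the 4 planned comparisons by sheet name. IFS1 passes the z test at 2.08, 3.06 and 2.63 against Pcz alone, and no other plotted value passes it.

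The order of the levels differed between treated groups and control. IFS2 and CHS7 led with Pcz alone, both at 38.6 FPKM. CHS7 led with low BL, IFS2 with 1 h BL, and CHI1A with 8 h BL. In control, averaged over its 4 columns, CHI1A (17.5 FPKM) and IFS2 (15.98 FPKM) led, before CHS8 (7.21 FPKM), CHS7 (6.80 FPKM) and IFS1 (3.25 FPKM). CHS7 stood at rank 2435 of the 54175 IDs by FPKM with Pcz alone and at rank 807 with low BL, against rank 14389 in control. IFS1, Glyma05g28610, Glyma08g11620 and Glyma09g08780 filled the last 4 places among members, in that order, in treated groups and control alike. With pooled values, no spread is at hand to say which neighbours in these orders differ.

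Likeness of the 4 log2 fold changes was measured by Euclidean distance over 30108 genes that had a test in every table and averaged at least 1 FPKM over the 5 groups. The non-member nearest to CHS8 was Glyma03g37310, at a distance of 0.224, with 2.84 FPKM (Pcz alone), 3.99 FPKM (low BL), 2.12 FPKM (1 h BL) and 1.91 FPKM (8 h BL) in the authors' deposited tables, against 0.568 to 0.724 FPKM in control. The non-member nearest to IFS2 was Glyma03g08250, at a distance of 0.368, with 1.05 FPKM (Pcz alone), 2.98 FPKM (low BL), 2.07 FPKM (1 h BL) and 0.875 FPKM (8 h BL) in the authors' deposited tables, against 0.466 to 0.561 FPKM in control. Among members, CHI1A was the 85th nearest gene to IFS2 (distance 1.14), CHS8 the 186th (1.34), IFS1 the 982nd (2.04), Glyma05g28610 the 1045th (2.06) and CHS7 the 4273rd (2.84), of 30107 other genes. CHS8 was the 73rd nearest gene to CHS7 (1.82). Some other pairs were far apart, with CHS7 the 17394th nearest gene to CHI1A (3.50). CHS7 was the 25851st nearest to Glyma05g28610 (4.59), and CHS8 the 17224th (3.21). The rank depends on the gene it is counted from, and CHI1A was the 683rd nearest gene to CHS7 at the same 3.50. Further pairs were nearer, with CHI1A the 484th nearest gene to Glyma05g28610 (1.46) and the 226th to IFS1 (1.82). These ranks describe tables that share control and have no test.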

How the data were processed

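The authors deposited 4 full tables with Cuffdiff's column names, per the file headers, and 4 short lists. Its version, the aligner, the build and the handling of multiply mapped reads could not be learned from the labels or headers. FPKM are the authors' pooled values, 1 for each group in each table. The log2 fold change (treated over control), the test statistic (a score), the p-value and the q-value are as the authors deposited them, and a fold change is infinite or a spreadsheet error where a group is listed at 0. Benjamini-Hochberg adjustment of the deposited p-values gave the deposited q-values to within 5.29e-07. The library kit was stranded, per the labels' protocols.

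With no values per library, limma could not be used, and the authors' test stands in. A standard error is the size of the log2 fold change divided by that of the test statistic. The authors' p can be smaller than a normal distribution of that statistic gives. CHI1A with Pcz alone, for example, had a statistic of 1.47 and p = 0.0064 by the authors' test. The authors' calls and the intervals given here thus rest on unlike measures of error. Tables were compared by a z test (Python 3.11.15, SciPy 1.17.1). On simulated data the z test recovered, of planted log2 differences of 2, 30% for low BL, 38% for 1 h BL and 20% for 8 h BL, each against Pcz alone, and 22% for 8 h BL against 1 h BL. Of differences of 4 it recovered 87%, 91%, 83% and 81% in that order, with 0 false calls. The simulated errors were partly shared between tables while the test took them as independent, so a lack of false calls was built in. Far fewer differences were planted than the data called, so these recovery rates need not hold for the data. Alternatives were other thresholds, p from the test statistic, pseudocounts of 1 and 0.1 FPKM, a minimum mean of 1 FPKM, subtraction of the median, shared error variance, assignment by column header, and, added after the data were seen, the TPM scale.

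Named are all 8 members, the gene nearest to CHS8 and that nearest to IFS2. The members, lists and tests were chosen with earlier results of these data known, although the rule for the members uses IDs only. A list of other pathway enzymes, to be matched by reference descriptions, could not be applied, since 0 of the 54175 IDs matched the 59048 RefSeq genes, and no sequence is printed.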

Additional observations from a re-analysis of the deposited data

Results flagged for a closer look

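The response of IFS1 differed between treated groups by the z test of the difference itself. Its log2 fold change exceeded that with Pcz alone by 2.08 for low BL, 3.06 for 1 h BL and 2.63 for 8 h BL. On the TPM scale these differences were 2.29, 3.15 and 2.04, and as plain log2 ratios of treated FPKM between tables they were 1.93, 2.92 and 2.22.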

How the results depend on the processing

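Under the alternatives run, counts of members called against control stayed within 1.5 times of the reported counts. With pseudocounts, subtraction of the median and the TPM scale the authors' q-values were kept, so these counts could not change. Assignment by column header only exchanged tables with 6 calls each, so it could not change them either. Only the other thresholds, p from the test statistic and the minimum mean of 1 FPKM put these counts to a test. Counts of members that differ also stayed within 1.5 times of the reported counts, apart from 4. With part of the error variance taken as shared between tables, 2 members in place of 1 differed from Pcz alone for each of low BL (CHS7 added), 1 h BL (IFS2 added) and 8 h BL (CHI1A added). On the TPM scale 1 member (IFS2) differed between 8 h BL and 1 h BL. Signs turned only for values that had not passed their test. With tables assigned by column header, CHS8 gave -0.16 for low BL and 0.74 for 1 h BL against Pcz alone, and for 8 h BL minus 1 h BL the values were -0.90 (CHS8), -0.10 (CHI1A) and 0.99 (IFS1). As log2 ratios of treated FPKM between tables, IFS2 gave -0.48 for 8 h BL against Pcz alone, and for 8 h BL minus 1 h BL the values were -0.26 (CHS8), -0.26 (Glyma08g11620) and -0.026 (CHI1A). On the TPM scale, IFS1 gave 0.12 with Pcz alone against control, CHS7 gave -0.13 and IFS2 -0.56 for 8 h BL against Pcz alone, and for 8 h BL minus 1 h BL the values were -0.67 (CHS8), -0.67 (Glyma08g11620) and -0.44 (CHI1A). The TPM scale also moved the called fold changes with low BL by 1.67 times and those with 1 h BL by 1.53 times, so that CHS7 was at 4.24 (log2) with low BL and 3.61 with 1 h BL. The cause of these shifts was not tested. No paired analysis was possible because the tables hold pooled values per group, and leaving out single libraries was not run for the same reason. The smallest p in the tables, 5e-05, hides the order of the strongest calls.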

Other observations

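The loci beside the members, 24 in all, are the 1 before and the 2 after each member in order of position. For Glyma05g28610 they include the 2 other IDs on its own interval. These loci were looked at after the values were seen, and they moved in both directions. With Pcz alone, 2 of 15 tested loci were higher and 4 lower, where 24.9% of all tested genes were higher and 28.4% lower. With low BL, 5 of 17 were higher and 1 lower, against 13.4% and 22.8% of tested genes. With 1 h BL, 7 of 18 were higher and 3 lower, against 25.6% and 26.5%. With 8 h BL, 4 of 18 were higher and 8 lower, against 25.8% and 30.7%. The loci named next were singled out after their values were seen.

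RefSeq places 2 other isomerase genes, CHI1B1 and CHI2-A, directly after CHI1A in its own assembly, but the files do not pair those names with IDs, so loci are given by position only. The locus that follows CHI1A (chromosome 20, 46131895 to 46134314) was not called with Pcz alone, at 0.979 FPKM in treated seedlings and 0.571 FPKM in control in the authors' deposited table (q = 0.178). It rose with low BL (6.95 FPKM treated, 0.542 FPKM control), 1 h BL (4.75 FPKM treated, 0.542 FPKM control) and 8 h BL (12.4 FPKM treated, 0.452 FPKM control) in the authors' deposited tables. The locus after that (46134756 to 46136204) rose in every treated group. The authors' deposited tables list it at 18.6 FPKM treated and 2.40 FPKM control (Pcz alone), 85.6 FPKM treated and 2.69 FPKM control (low BL), 10.98 FPKM treated and 2.70 FPKM control (1 h BL), and 9.69 FPKM treated and 2.23 FPKM control (8 h BL). The locus before CHI1A was higher in no table and lower with 1 h BL and 8 h BL. The locus before Glyma08g11620 (chromosome 8, 8462028 to 8464321) was not tested with Pcz alone and rose in the 3 tables with BL, with 3.06 FPKM treated and 0.207 FPKM control for 8 h BL in the authors' deposited table.

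Some of the other loci rose, and some fell or were mixed. The locus before IFS1 (chromosome 7, 37219394 to 37225365) was higher with 1 h BL (authors' log2 fold change 2.05) and not called elsewhere. The locus after IFS1 (37271698 to 37272460) was higher with 1 h BL (4.23) and 8 h BL (3.93), and not tested otherwise. The second locus after Glyma09g08780 was higher with 1 h BL only (0.48). The locus before CHS7 was tested with low BL only and was higher there. The locus before CHS8 (chromosome 11, 785498 to 789342) was lower with Pcz alone, 1 h BL and 8 h BL, with log2 fold changes of -0.42, -0.56 and -0.61 in the authors' deposited tables. An ID on the same interval as Glyma05g28610 was lower with Pcz alone (-0.54), low BL (-1.07) and 8 h BL (-0.91) by log2 fold change in the authors' deposited tables. The locus after IFS2 (chromosome 13, 27576121 to 27577921) was lower with Pcz alone (-0.63), higher with low BL (2.21) and 1 h BL (1.14), and not called with 8 h BL (0.17), by log2 fold change in the authors' deposited tables. The second locus after IFS2 (27582809 to 27583236) was lower with Pcz alone (-2.33), 1 h BL (-2.88) and 8 h BL (-0.97), by log2 fold change in the authors' deposited tables.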
